A study of Homo sapiens with 2 samples.

Results

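Genes of 6 high mobility group proteins, HMGA1, HMGB1, HMGB2, HMGB3, HMGN1 and HMGN2, were examined for contacts with NUDT21. A peak belonged to one of them when its midpoint lay in the body of the gene in GENCODE release 44, and 31 of the 20499 peaks of the deposited eCLIP list did. The study mapped NUDT21 on RNA in J-Gamma1, a cell line of T-cell acute lymphoblastic leukemia (T-ALL), with 1 library from the NUDT21 antibody and 1 input library. In eCLIP-seq, UV light links proteins to the RNA they touch, an antibody recovers one protein with its RNA, and the RNA is sequenced. All cells, the input included, received 2 irradiations of 400 mJ at 254 nm on ice, and the lysate was digested with 40 U of RNase I at 37 °C for 5 min. Peaks of the antibody library were analysed, and no file of the input was used here. With 1 library and no replicate nothing was tested. Intervals are exact Clopper-Pearson 95% intervals of shares, or exact intervals of ratios of counts, and cover counting error only. The list held no read totals, so the depth was unknown.

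High mobility group proteins are small, abundant chromatin proteins of several unrelated families. HMGA1 binds the minor groove of AT-rich DNA with AT hooks, HMGB1, HMGB2 and HMGB3 bend DNA with paired HMG boxes followed by an acidic tail, and HMGN1 and HMGN2 bind nucleosomes. NUDT21 is the subunit of cleavage factor I that recognises UGUA upstream of cleavage sites, and it takes part in the choice between alternative polyadenylation sites of one 3'UTR. The hexamers AAUAAA and AUUAAA are the usual poly(A) signals, placed shortly before the end of an mRNA.

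Sequences of the sites on which the account below turns are shown 5′ to 3′ on the strand of the gene, in RNA letters read from hg38. In the first set, from 3'UTRs, capitals mark UGUA in the lines named for a motif and the poly(A) hexamer alone in the lines named for a signal. The HMGB2 sites lay at chr4:173331955-173331984 and chr4:173331778-173331807, which hold the first and the last UGUA of its 3'UTR peak, and at chr4:173331702-173331731, where AAUAAA stood 18 nt before the annotated end of HMGB2-202 and HMGB2-203 (minus strand). The HMGB1 sites surround the annotated end at 2610 nt past the stop codon. They lay at chr13:30458819-30458848 in the peak upstream of that end, at chr13:30458745-30458774, where AUUAAA began 15 nt before it, and at chr13:30458666-30458695 in the peak downstream of it. The last HMGB1 site, chr13:30459861-30459890, holds the AAUAAA 28 nt before the end of HMGB1-202 (all minus strand).
HMGB2 first motif: ucaguauaaaaacUGUAcagauuuuUGUAu
HMGB2 last motif: agcacagcaaacuUGUAggaauuaguauca
HMGB2 signal: aaaaaauuuuguAAUAAAauuauguauauu
HMGB1 upstream motif: uguuaauguuugcUGUAuuuauuaauuuuc
HMGB1 signal at 2610 nt: cgagggguaaugAUUAAAugauaaagauaa
HMGB1 downstream motif: cuaccuaaggaauUGUAaccauugcucaga
HMGB1 signal at 1507 nt: cuggaugauacuAAUAAAcuaauaauugca

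In HMGN1 every peak lay in an intron of the MANE Select transcript, the single reference transcript agreed for each gene. UGUA from these intron peaks is shown for chr21:39346761-39346790 and chr21:39347698-39347727, both on the minus strand, with the motif in capitals.
HMGN1 intron site A: uacaucucguuucUGUAauacaccuuugac
HMGN1 intron site B: cgaauugcaggucUGUAgaaugaaguuggc

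Coding peaks of HMGB1 and HMGB2 met in part at the same codons of their aligned proteins. The codons shown are 66 to 75 of HMGB1 (chr13:30463278-30463307, minus strand) and of HMGB2 (chr4:173333140-173333169, minus strand). Capitals mark the 9 of 30 bases that differ within the pair.
HMGB1 codons: GCGgacaaGgcCcgUuaugaAagAgaAaug
HMGB2 codons: AGUgacaaAgcUcgCuaugaCagGgaGaug

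All 6 genes held at least 1 peak in the body, against 33.4% of protein-coding genes, and all 6 an exonic peak in some transcript, against 22.6%. The genes were chosen with peaks of these data known, so these counts describe the choice. HMGB1 had 13 peaks, HMGN1 7, HMGB2 5, HMGN2 4, and HMGA1 and HMGB3 1 each. A 3'UTR peak was found in 4 of the 6 genes, HMGA1, HMGB1, HMGB2 and HMGN1, against 14.3% of protein-coding genes with an annotated 3'UTR, a count open to the same choice. The HMGN1 peak of this class depended on nonsense-mediated decay transcripts and was an intron peak in the MANE Select transcript. No exon or intron of another gene overlapped any of the 31 peaks, which matters because the list carries no strand.

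The deposited Score of each peak was a whole multiple of 0.228, called a step here, and served as the height of the peak. Heights ranged from 6 to 39 steps with a median of 10, whereas the median of all 20499 peaks was 3 and the maximum 45. All 31 peaks had 5 or more steps, against 42.3% of the list, and 7 of 31 had 30 or more, against 0.298% (61 peaks). These 7 tall peaks were the 5 of HMGB2 together with the 5'UTR peak and the coding peak of HMGB1. The other genes stayed at or under 16 steps.

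**Figure D1:**
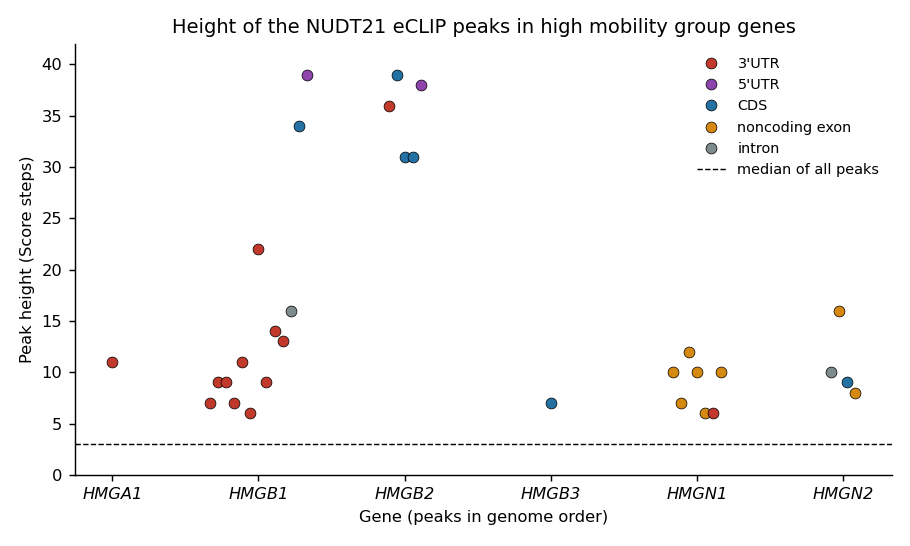
Height of each of the 31 peaks in Score steps (vertical axis), by gene (horizontal axis, peaks in genome order), coloured by the region of the midpoint. The dashed line is the median of the whole list, 3 steps. The 5 HMGB2 peaks stand at 31 to 39 steps, and HMGB1 spans 6 to 39.

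Fold enrichment, the ratio of the Score plus 1 to the local background plus 1, had a median of 2.64 over the 31 peaks and 1.61 over the list. It was at least 2 in 28 of the 31 peaks, against 38% of the list. The false discovery rate (FDR) was under 0.05 for 0 of the 31 peaks, against 0.0927% of the list (19 peaks), and was 1 for 27 of them. The lowest, 0.0518, belonged to the 3'UTR peak of HMGB2, and the 19 peaks under 0.05 were the only ones in the list that were lower. The 31 peaks were short, with a median length of 81 nt (48 to 497 nt) beside 155 nt for the list and 77 nt for list peaks of 5 or more steps.

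The local background was worked out from the Score and the fold enrichment of each peak. Its median was 0.24 over the 31 peaks and 0.048 over the list. It reached 0.6 or more in 9 of 31 peaks, against 2.06% of the list. All 7 peaks of 30 or more steps were among these 9, so height and background went together here, and the part of the background in the heights was not tested. The remaining pair, the intron peak of HMGB1 and a noncoding-exon peak of HMGN2, had 16 steps each over a background of 1.

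**Figure D2:**
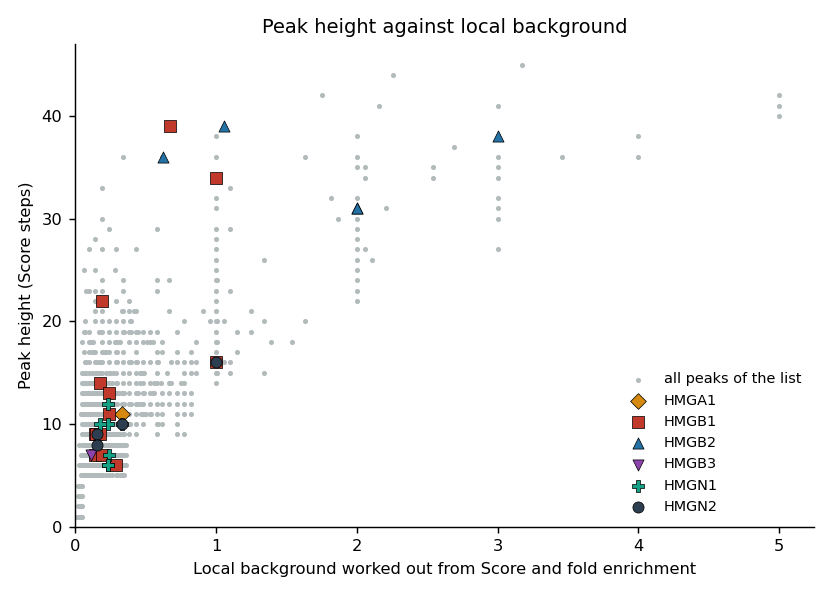
Peak height in Score steps (vertical axis) against the local background worked out from Score and fold enrichment (horizontal axis, in Score units), for all peaks of the list (grey) and the peaks of the 6 genes (coloured marks). The HMGB2 peaks sit between 0.624 and 3 on the background axis, and 9 of the 31 marks sit at 0.6 or more.

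Midpoints fell in 3'UTRs for 13 of the 31 peaks (41.9%, 24.5 to 60.9), in CDS for 6 (19.4%, 7.45 to 37.5), in 5'UTRs for 2 (6.45%, 0.791 to 21.4), in exons of noncoding transcripts for 8 (25.8%, 11.9 to 44.6) and in introns for 2 (6.45%, 0.791 to 21.4). Over the 18659 peaks in protein-coding genes these shares were 30% in 3'UTRs, 23.3% in CDS, 3.25% in 5'UTRs, 3.75% in noncoding exons and 39.6% in introns. Peaks of 5 or more steps are the nearer comparison, and of 8429 such peaks 44% lay in 3'UTRs, 42.1% in CDS, 2.21% in noncoding exons and 8.15% in introns. HMGB1 alone supplied 10 of the 13 3'UTR peaks, and without it the share was 16.7% (3.58 to 41.4). When the MANE Select transcript alone was used, 12 of the 31 peaks were intronic, 7 of them in HMGN1 and 3 in HMGN2.

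**Figure D3:**
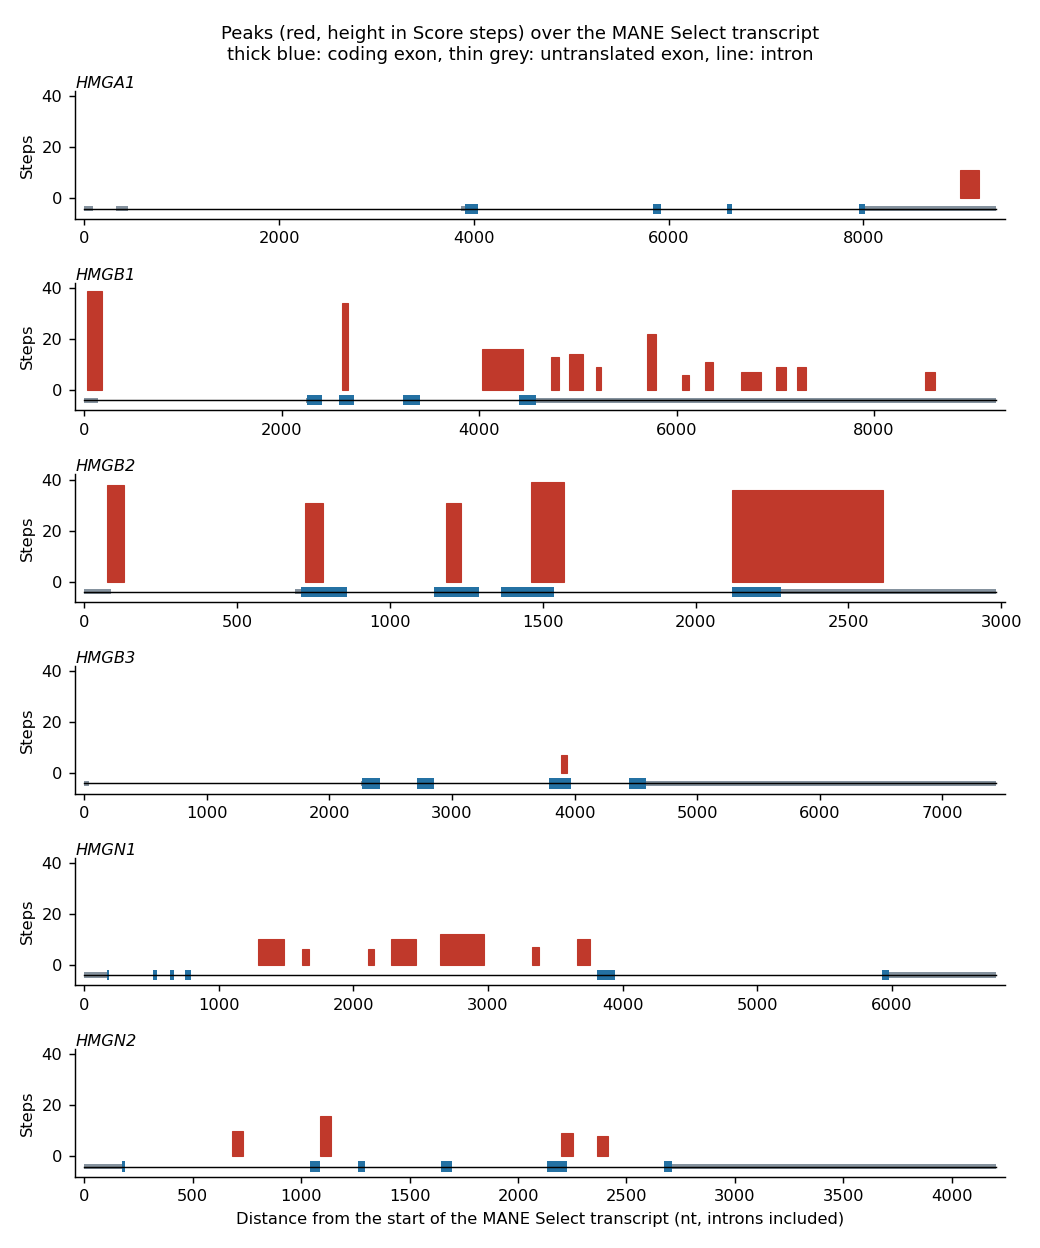
Peaks (red boxes, width in nt and height in Score steps on the vertical axis) along the MANE Select transcript of each gene (horizontal axis, nt from its start, introns included). Thick blue boxes are coding exons, thin grey boxes untranslated exons and the line introns. HMGB1 and HMGB2 carry peaks from the first exon to the 3'UTR, while those of HMGN1 lie in 1 intron.

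HMGB2 (chr4:173331376-173334432, minus strand), an HMG-box protein abundant in proliferating cells, was the most densely covered of the 6. Its 5 peaks held 48.0% of the 1441 nt of mature mRNA, rank 7 of the 4370 genes with an exonic peak that were ranked, whose median was 4.44%. The coverage was 54.8% of the CDS (rank 19) and 47.7% of the 704 nt of 3'UTR (rank 62). The heights of the 5 peaks lay within 31 to 39 steps, a narrower range than in HMGB1.

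The 3'UTR peak of HMGB2, chr4:173331744-173332240, was 497 nt long with 36 steps, a fold enrichment of 5.66, a p-value of 2.26e-08 and an FDR of 0.0518. Only 13 peaks of the list had a higher fold enrichment. It began 2 nt upstream of the last coding exon, held 336 nt of 3'UTR and contained 6 UGUA, 109 to 286 nt past the stop codon. Its downstream edge stopped 39 nt short of the annotated end of HMGB2-205 and 43 nt short of that of HMGB2-202 and HMGB2-203, and 368 nt short of the MANE Select end. The AAUAAA of the proximal ends, 361 nt past the stop codon, thus lay just outside the peak.

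The other HMGB2 peaks were short. The peak in coding exon 4, chr4:173332788-173332897, had 39 steps and a fold enrichment of 4.81 (FDR 0.539). It crossed the edge of that exon, with 77 of its 110 nt in the mRNA. The peaks in coding exon 3, chr4:173333126-173333176, and coding exon 2, chr4:173333578-173333635, had 31 steps and a fold enrichment of 2.69 each, over a background of 2. The first peak of the gene, chr4:173334230-173334282, had 38 steps over a background of 3 and a fold enrichment of 2.41. It lay in a 5'UTR exon of HMGB2-203 only, while in the MANE Select transcript it straddled the edge of exon 1, with 11 nt in the exon and the rest in intron 1. None of these 4 peaks held UGUA.

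HMGB1 (chr13:30456704-30617597, minus strand) encodes the most studied HMG-box protein, an architectural factor in the nucleus and a danger signal outside the cell. Its 13 peaks covered 22.1% of the 5456 nt of mature mRNA (rank 165 of 4370), 69.7% of the 5'UTR, 15.9% of the CDS and 21.4% of the 4653 nt of 3'UTR. The tallest peak, chr13:30465761-30465903, had 39 steps and the highest fold enrichment of the 31, 5.91 (FDR 0.0925), and its sequence was 67.1% G and C. It crossed the edge of exon 1, with 108 of its 143 nt in the mRNA and the rest in intron 1. The coding peak in exon 3, chr13:30463267-30463329, had 34 steps and a fold enrichment of 4.37. A peak of 410 nt, chr13:30461494-30461903, with 16 steps, lay in intron 4 and reached 40 nt into the last exon.

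The 10 peaks in the HMGB1 3'UTR were spread along it. Their midpoints stood 187, 403, 628, 1163, 1507, 1746, 2174, 2476, 2685 and 3986 nt past the stop codon. In the same order their heights were 13, 14, 9, 22, 6, 11, 7, 9, 9 and 7 steps. The tallest, chr13:30460150-30460238, stood above the rest of the 3'UTR with 22 steps, a fold enrichment of 5.04 and an FDR of 0.125, and it held no UGUA and no poly(A) signal. The next in height, chr13:30460882-30461027, had 14 steps and a fold enrichment of 3.56.

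HMGB1 has annotated ends inside this 3'UTR, and several peaks stood beside them. Of 8 complete ends of the gene, 6 had a peak over them or within 100 nt upstream, though 2 of the 6 were ends of transcripts that stop before the 3'UTR. No share over the ends of all genes stands beside this count, and peaks held 21.4% of the 3'UTR. The end 2610 nt past the stop codon, with the AUUAAA shown above, had a peak of 9 steps 84 nt upstream, chr13:30458831-30458931, and another of 9 steps 31 nt downstream, chr13:30458629-30458716. The upstream peak held 1 UGUA and the downstream peak 2. The end of HMGB1-202, 1507 nt past the stop codon, lay within the lowest peak of the gene, chr13:30459814-30459886, of 6 steps, which held the AAUAAA of that end and no UGUA. The ends of HMGB1-204 and HMGB1-205 at 462 and 450 nt lay within the peak of 14 steps. The MANE Select end had no peak nearer than 620 nt.

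**Figure D4:**
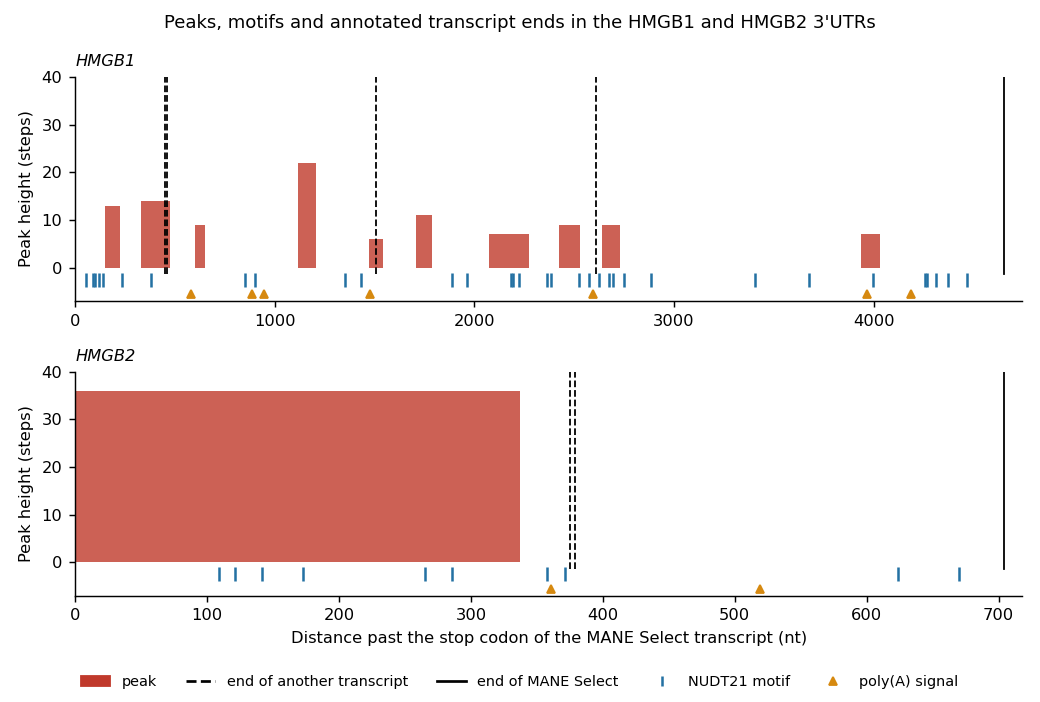
Peaks (red, height in Score steps on the vertical axis) along the 3'UTRs of HMGB1 and HMGB2 (horizontal axis, nt past the stop codon of the MANE Select transcript). Blue ticks are NUDT21 motifs, orange triangles poly(A) signals, dashed lines ends of other complete transcripts and solid lines the MANE Select end. The HMGB2 peak ends just before the proximal pair of ends at 375 and 379 nt, and the last 620 nt of the HMGB1 3'UTR hold no peak.

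HMGB3 (chrX:150980509-150990771, plus strand), the family member linked to stem and progenitor cells, had 1 peak. It lay in coding exon 4, chrX:150987222-150987271, with 7 steps and a fold enrichment of 2.33. Its 3'UTR of 2857 nt held 22 UGUA and no peak, so that 1.43% of the mRNA was covered. The density of UGUA was 7.70 per kb there, beside 7.09 per kb in the 3'UTR of HMGB1 and 14.2 per kb in that of HMGB2.

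HMGA1 (chr6:34236873-34246231, plus strand) also had 1 peak, chr6:34245868-34246059, with 11 steps and a fold enrichment of 2.62. It lay in the 3'UTR and covered 14.3% of its 1347 nt, with its downstream edge 172 nt before the MANE Select end. The peak held no UGUA. The 3'UTR held 1 UGUA in all, 124 nt from its end, and thus downstream of the peak.

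HMGN1 (chr21:39342315-39349647, minus strand) had 7 peaks and 0% of its 1271 nt of mature mRNA in a peak. All 7 lay in intron 4 of the MANE Select transcript, between chr21:39345329 and chr21:39347800. Heights ranged from 6 to 12 steps and fold enrichments from 1.92 to 3.03. The tallest, chr21:39346118-39346447, was 330 nt long with 12 steps. In the annotation 6 of the 7 fell in noncoding exons, all 6 in exons of HMGN1-216, which keeps sequence of this intron. The seventh, chr21:39347421-39347468, fell in exons of 11 transcripts and was a 3'UTR peak by way of those subject to nonsense-mediated decay. The 3'UTR of HMGN1 held 9 UGUA and no peak, while 4 of the 7 intron peaks held 8 UGUA together on the gene strand. In genome order, these 4 held 1, 3, 1 and 3 on the gene strand. On the opposite strand they held 4, 3, 0 and 1, so the motif was not particular to the gene strand.

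HMGN2 (chr1:26472440-26476642, plus strand) had 4 peaks and 1.6% of its 1940 nt of mRNA in a peak. The tallest, chr1:26473528-26473575, had 16 steps and a fold enrichment of 2.32 over a background of 1, and lay in intron 2 of the MANE Select transcript, in exons of 4 other transcripts. The coding peak, chr1:26474637-26474694, crossed the edge of exon 5 with 31 of its 58 nt in the mRNA, and had 9 steps and a fold enrichment of 2.64. The other peaks, chr1:26473121-26473172 in intron 1 and chr1:26474804-26474855 in intron 5, had 10 and 8 steps. None of the 4 held UGUA, and the 3'UTR of 1494 nt held no peak.

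To set the peaks against the motif of NUDT21, UGUA was counted on both strands. Counts of UGUA in this account refer to the gene strand unless the opposite strand is named. It was present in 6 of the 13 3'UTR peaks (46.2%, 19.2 to 74.9), against 40.9% of the 5602 3'UTR peaks of all genes and 31.4% of those of 5 or more steps. In the 3'UTRs of the 4 genes with such a peak, there were 14 UGUA in 1571 nt of peak (8.91 per kb) and 41 in 6652 nt outside (6.16 per kb). The ratio was 1.45 with an interval of 0.728 to 2.71, which includes 1. Within HMGB1 it was 1.22 (0.476 to 2.79) and within HMGB2 1.64 (0.390 to 7.92). In HMGA1 and HMGN1 it was 0, with no UGUA in 192 and 48 nt of peak. Without HMGB2 the pooled ratio was 1.1 (0.443 to 2.4). On the opposite strand, UGUA was present in as many of the 13 3'UTR peaks as on the gene strand. The HMGB2 peak held 3 there beside 6 on the gene strand. The HMGB1 peaks of 11 and 13 steps held it on the opposite strand only. The share over all genes on that strand is not given here.

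Outside the 3'UTRs, UGUA was present in 0 of the 8 peaks in CDS and 5'UTRs, against 20.7% of such peaks in all genes. On the opposite strand, the 5'UTR peak of HMGB1, the HMGB2 peak in exon 4 and the HMGB3 peak held 1 each. Of the 12 peaks that were intronic in the MANE Select transcript 5 held UGUA on the gene strand. These 12 include the HMGN1 peak classed as 3'UTR and the HMGB2 peak of 38 steps classed as 5'UTR. UGUA was present in 62.3% of intron peaks of all genes. Those peaks were intronic in every transcript of the gene, and only 2 of the 12 were, so the classes differ. Intron peaks of the list were longer, with a median of 264 nt against 52.5 nt for these 12, and 48.6% of those with 5 or more steps held the motif. In all, 25 UGUA lay in 11 of the 31 peaks. A poly(A) signal, AAUAAA or AUUAAA on the gene strand, was present in 3 of the 13 3'UTR peaks, against 14.5% of those of all genes. In the HMGB2 peak the hexamer did not lie wholly in the 3'UTR.

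Midpoints of 5 of the 13 3'UTR peaks (38.5%, 13.9 to 68.4) lay within 150 nt of an annotated transcript end of the gene, noncoding transcripts included, against 26.8% of the 3'UTR peaks of all genes. Of these 5, 4 belonged to HMGB1 and 1 to HMGN1. The share was 0% (0 to 26.5) when only the MANE Select end was used and 76.9% (46.2 to 95) for a distance of 300 nt, so it turned on the definition of an end and on the distance. Over the 6 genes, 9 of 43 complete ends had a peak over them or within 100 nt upstream, 6 of them in HMGB1, 2 in HMGB2 and 1 in HMGN1. The same share over the ends of all genes is not given here, so these counts do not show whether peaks gather at ends.

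Codons of the HMGB genes inside a peak of any class were compared along the aligned proteins. Codons 158 to 170 of HMGB1 lay in the peak with its midpoint in intron 4. They were aligned with HMGB2 codons in the 3'UTR peak of that gene. HMGB1 and HMGB2 were identical at 81.3% of 209 aligned residues and HMGB2 and HMGB3 at 75.5% of 200. Of 33 HMGB1 codons wholly inside a peak, 28 (84.8%) were aligned with HMGB2 codons inside a peak, which were 25% of the 112 such codons of HMGB2. In HMGB2, 53.6% of all codons lay in a peak. Of 16 HMGB3 codons in a peak, 14 (87.5%) were aligned with HMGB2 codons in a peak, or 12.5% of those of HMGB2. No codon was in a peak in both HMGB1 and HMGB3. In the 84 nt shared by peaks of HMGB1 and HMGB2, 64 bases were identical, and in the 42 nt shared by HMGB2 and HMGB3, 18 were.

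The acidic tail that closes the HMGB proteins was covered in 1 of them. It is an unbroken run of aspartate and glutamate of 22 residues in HMGB2, from 188 to 209, and all 22 codons lay in the 497-nt peak. The corresponding run is 30 residues in HMGB1, from 186 to 215, and 20 in HMGB3, from 181 to 200, and in both 0 of its codons lay in a peak. Over all 6 genes, 46 of 171 residues coded in peaks were acidic (26.9%, 20.4 to 34.2), against 150 of 750 outside peaks (20%). Of these 46, 22 were the tail of HMGB2, and without HMGB2 the share in peaks was 22% (12.3 to 34.7). The direction differed between genes, with 29.5% inside and 15.5% outside in HMGB2 and 21.2% inside and 26.9% outside in HMGB1. Purines made up 59.7% of the 6 coding peaks (54.7 to 64.6), against 53.8% of all CDS peaks of the list. Over exonic peaks of every kind the values were 52.8% (51.1 to 54.5) and 51.6%, with 50.9% in the mature mRNAs of the 6 genes outside peaks. The intervals of residues and purines treat neighbours within a peak as separate draws, and are therefore too narrow. The purine share of the CDS of these genes outside peaks is not given here.

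Because these genes have many processed pseudogenes, copies of spliced mRNA inserted elsewhere in the genome, each stretch of 32 nt was searched in the main chromosomes on both strands. The annotation names 47 pseudogenes of HMGB1, 38 of HMGN2, 32 of HMGN1, 29 of HMGB3, 7 of HMGA1 and 1 of HMGB2, and 0 of them held a peak. Of the mature mRNA, 70.4% of stretches occurred elsewhere for HMGN1, 52.7% for HMGN2, 45.9% for HMGA1, 41.4% for HMGB1, 29.9% for HMGB3 and 3.33% for HMGB2. Apart from HMGB3, the order of the genes by this share was the reverse of their order by coverage of the mRNA. It ran from HMGN1, with 70.4% elsewhere and 0% in peaks, to HMGB2, with 3.33% and 48.0%. HMGB3 was the exception, with 29.9% elsewhere and 1.43% in peaks, beside 41.4% and 22.1% for HMGB1. Of introns 2.18% occurred elsewhere.

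Within the mRNAs, bases at the centre of a stretch found at 1 place lay in a peak in 17% of 9269 cases, and bases found elsewhere too in 9.8% of 6080 cases. In the CDS the shares were 34.1% of 1159 bases and 8.26% of 1622 bases, and in the 5'UTRs the order was the opposite, with 9.42% and 33.3%. HMGB2 supplied most of the pooled difference. Without it, an alternative chosen after seeing the data, the shares were 11.3% and 9.75% over the mRNA and 9.27% and 8.3% in the CDS. By gene, over the whole mRNA, the share was higher for single-place bases in HMGB1 and HMGB2, and lower in HMGA1 (8.32% and 12.3%), HMGB3 (0.821% and 2.88%) and HMGN2 (0% and 3.08%). In the CDS of HMGB1 the shares were 71.1% of 45 single-place bases and 11.8% of 603 others. In the CDS they were 57.4% and 6.25% in HMGB2, 8.97% and 7.89% in HMGB3, and 0% and 13.2% in HMGN2. HMGA1 and HMGN1 had no CDS base in a peak. None of the stretches occurred elsewhere in 19 of the 31 peaks, among them all 7 of HMGN1. The pair of HMGB1 3'UTR peaks nearest the stop codon was shared most, at 100% and 84.4%, and the single HMGB3 peak was shared at 100%. How reads with several matches were treated in the mapping is not given in the sources used here, and the part of shared sequence in the position of the peaks was not tested.

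**Figure D5:**
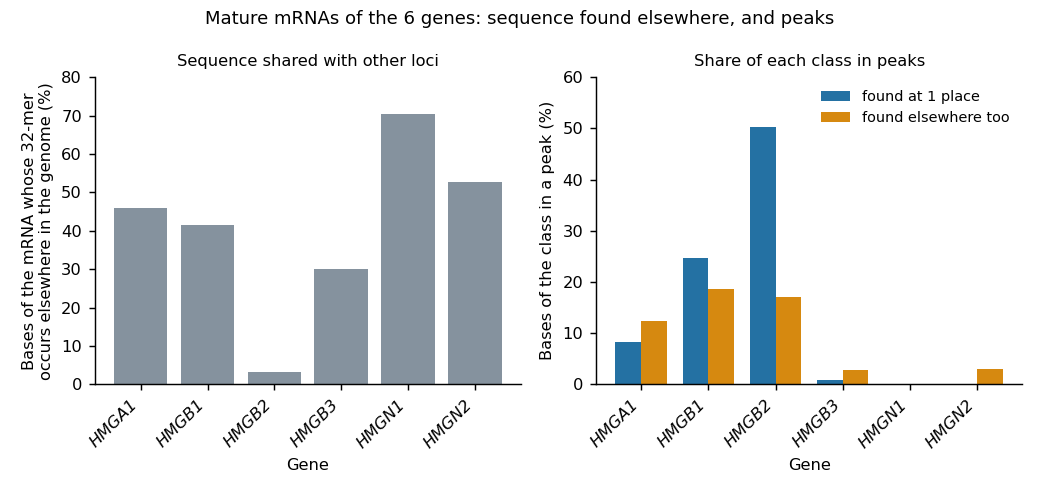
Left, share of the bases of each mature mRNA (vertical axis, %) at the centre of a 32-nt stretch that occurs elsewhere in the genome. Right, share of bases in a peak (vertical axis, %) among bases found at 1 place (blue) and found elsewhere too (orange), for each gene. HMGB2 shows 50.2% of its single-place bases in peaks, and HMGN1 shows 0 for both classes.

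Related genes gave a context for these counts. Over all protein-coding genes, 33.4% held a peak and 22.6% an exonic peak. The lists were chosen with earlier results of these data known, so their counts are open to that choice. Of 5 other HMGA, HMGB and HMGN genes, only HMGN5 had a peak, with 3 peaks of up to 9 steps, while HMGA2, HMGB4, HMGN3 and HMGN4 had none. Of 18 further genes of HMG-box proteins, 14 held a peak and 12 an exonic peak, with a median height of 6 steps and a maximum of 17. All 10 genes of acidic histone chaperones held an exonic peak, 76 peaks in all with a median of 14.5 steps and a maximum of 36, and 2 of these had an FDR under 0.05.

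Genes were also ranked by how alike their coverage of 5'UTR, CDS and 3'UTR was to that of each member, by Euclidean distance between the 3 shares over 4369 genes. Nearest to HMGB2 were NREP, with 60.9% of the CDS and 47.5% of the 3'UTR in peaks, and ZRANB2, with 45.4% and 45.9%, at distances of 0.12 and 0.14. Nearest to HMGB1 were DFFB at 0.115 and ELOVL5 at 0.133. No gene lay within 0.05 of either. The other members had many near neighbours, since few of their shares differed from 0: MYT1L and RCAN3 were nearest to HMGA1, HDAC8 and INSIG1 to HMGB3, and SPATA33 and GINS1 to HMGN2. For HMGN1, 276 genes tied at a distance of 0, all with no base of the mature mRNA in a peak.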

How the data were processed

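The library made with the NUDT21 antibody was analysed from its deposited peak list, and no file of the input was used here. The authors trimmed reads with fastp, collapsed duplicates by their molecular identifiers, discarded reads from ribosomal RNA, mapped to hg38 and called peaks on this single replicate with MACS2, with local windows of 1000 and 10000 nt. They stated a q-value threshold of 0.05, which 19 of the deposited peaks pass. The aligner and the use of the input as a control are not given in the sources used here. The authors deposited the fold enrichment as a ratio of pileup to local background. They deposited a p-value and an FDR, which is a q-value, and the deposited Score was used as a signal of unstated unit. It came in whole steps of 0.228, and the background was (Score + 1) / fold enrichment − 1.

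Peaks were assigned by midpoint to the transcripts of each gene in GENCODE 44, with 3'UTR before 5'UTR, then CDS, noncoding exons and introns. Coverage used the MANE Select transcript. Complete ends leave out transcripts annotated as incomplete at the 3' end. Codons were counted when all 3 bases lay in a peak, and proteins were aligned globally with BLOSUM62. The genes named were the members, those of a count of 5 or fewer and, for likeness, the nearest 2. The members and lists were chosen with earlier results of these data known. The result of 1 list is not reported here. The positions of sites printed and the comparison of aligned codons, acidic tails and single-place bases were added after the data had been seen. Alternatives were an FDR under 0.05, a fold enrichment of at least 2, 5 or more steps, merging within 100 nt, other transcript sets and precedence, the central 100 nt, extension by 50 nt, UGUAA or UGUAU, distances of 50 and 300 nt, 24-mers and the omission of each gene. Region assignment, motif counts and k-mer searches were tested on simulated data. Scripts ran in Python 3.11.15 with pysam 0.24.0, scipy 1.17.1, pandas 2.3.3 and numpy 2.4.6.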

Additional observations from a re-analysis of the deposited data

How the results depend on the processing

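No paired analysis was possible because each group holds 1 sample, no file of the input was used here and no result comes from a test. Of 88 alternatives over all results, 69 left the value within its counting interval, or a count within 1.5 times, and 19 moved it. Some of the 69 could not move. All 31 peaks passed the limit on Score steps, so that alternative changed nothing. For the motif, transcript-end and acidic results, leaving out a gene with no such peak or codon also changed nothing. Some intervals were wide, such as 19.2% to 74.9% for the share of 3'UTR peaks with UGUA. The 69 are therefore not a measure of robustness. With an FDR under 0.05, the 31 peaks became 0. Leaving out each gene in turn gave 18 to 30 peaks, with 18 without HMGB1, and a 3'UTR share of 16.7% to 50%. The covered share of the 6 mRNAs together, 14%, was 9.49% with the central 100 nt of each peak and 9.57% to 17.6% without 1 gene, lowest without HMGB1. The share of 3'UTR peaks near a transcript end was 76.9% at 300 nt and 0% with the MANE Select transcript only. Purines were 59.7% in CDS peaks only. Of the stretches of exonic peaks, 13.7% occurred elsewhere, and this was 20% with 24-mers, 16.8% in HMGB genes only and 7.13% to 19.7% without 1 gene, lowest without HMGB1. The alternatives with HMGB genes only, without nonsense-mediated decay transcripts and without incomplete transcripts were chosen after seeing the data. The density ratio of UGUA kept an interval that includes 1 under each of its 10 alternatives, some of which could not change it. One library, unknown depth and peaks without strand limit every value here.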
